A study of Mus musculus with 4 samples.

Results

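The genes described here are the 10 that carry out or report the first steps of antigen receptor assembly: Dntt, Rag1 and Rag2, which cut and diversify receptor gene segments, Vpreb1, Vpreb2, Vpreb3 and Igll1, which encode or accompany the surrogate light chain, and Cd79a, Cd79b and Blnk, which carry the signal of the pre-B receptor. They were picked by mouse gene symbol from a set list of names, and all 10 were found among the 28987 genes of the deposited table. Expression was measured by RNA sequencing of bone marrow cells from C57BL/6 mice, enriched on magnetic beads for c-Kit (CD117), a receptor of stem and progenitor cells. Libraries labelled Hif1a-null (n = 2) came from mice with the genotype MllPTD/WT, Runx1Flox/Flox, Hif-1alphaFlox/Flox and Mx1-Cre. Libraries called Hif1a-intact here (n = 2) had the genotype MllPTD/WT, Runx1Flox/Flox and Mx1-Cre. Both groups thus shared a partial tandem duplication in 1 Mll allele and a floxed Runx1 gene, and only the Hif1a-null group had floxed Hif1a, which encodes the oxygen-regulated subunit of HIF-1. The sample titles label the libraries of both groups Runx1-null. Mx1-Cre is a recombinase under an interferon-inducible promoter that is active in many blood and other cells. Mouse ages, mice per library and the timing of Cre induction: none was found in the labels. Nor do the labels state whether replicate libraries derive from different animals, so the p-values describe library-to-library spread, which may be technical.

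In developing lymphocytes the RAG1 and RAG2 proteins cut DNA beside V, D and J segments, and the cut ends are rejoined by the general end-joining machinery. Terminal transferase, the product of Dntt, adds bases at the junctions without a template. A B cell precursor that has made a heavy chain pairs it with the surrogate light chain, a VpreB protein together with lambda 5 (Igll1), and displays it with the CD79A and CD79B signalling chains as the pre-B receptor. The adaptor BLNK links that receptor to downstream enzymes. Dntt and the Rag genes are also used by early T cell precursors, and transcripts of several of these genes are known from lymphoid-primed progenitors before commitment.

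Members of the set that lie close together in the genome were shown with their sequences first, since shared sequence bears on how reads could be assigned. On GRCm38, Vpreb1 (ENSMUSG00000059305, chromosome 16, 16868403 to 16870843, minus strand) lies 4417 bases from Igll1 (ENSMUSG00000075370, 16860671 to 16863985, minus strand). Vpreb2 (ENSMUSG00000059280, 17980428 to 17981273, plus strand) lies 1109584 bases from Vpreb1 and is a near-identical copy of it. The annotated coding sequences of both had 429 bases and differed at 9 of them, an identity of 97.9%, with a longest identical run of 196 bases. The 90 coding bases with the most differences (bases 298 to 387 of the coding sequence, GENCODE vM21) are printed below, with the 5 bases that differ between the copies in capitals. They lie in an exon, at chr16:16868638-16868727 for Vpreb1 on the minus strand and chr16:17980949-17981038 for Vpreb2 on the plus strand.
Vpreb1: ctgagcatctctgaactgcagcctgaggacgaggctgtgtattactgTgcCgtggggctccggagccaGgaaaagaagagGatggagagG
Vpreb2: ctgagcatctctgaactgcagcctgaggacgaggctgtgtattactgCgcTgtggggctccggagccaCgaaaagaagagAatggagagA
Of the 31-base words in the annotated Vpreb1 transcripts, 368 of 736 also occurred in Vpreb2. Word matches of this kind are what kallisto, the program named for these data, uses to assign reads, so the split of reads between these genes is uncertain. No such word of Dntt, Vpreb3, Igll1, Cd79b or Blnk occurred in a transcript of another gene.

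Promoters of 4 members that were higher in the Hif1a-null libraries follow, as the 250 bases before the RefSeq transcript start (GRCm38.p6). Capitals mark matches, on either strand, to the EBF1 palindrome CCCNNGGG, the E2A-type E-box CAGNTG and the RUNX motif TGTGGT, named for factors known to act in early B cells. The Igll1 promoter (chr16:16863986-16864235, minus strand) and the Vpreb1 promoter (chr16:16869256-16869505, minus strand, inside the annotated gene span) are shown for the surrogate light chain, the Rag1 promoter (chr2:101649533-101649782, minus strand) for the recombinase, and the Dntt promoter (chr19:41029025-41029274, plus strand) for the member with the highest mean level.
Igll1: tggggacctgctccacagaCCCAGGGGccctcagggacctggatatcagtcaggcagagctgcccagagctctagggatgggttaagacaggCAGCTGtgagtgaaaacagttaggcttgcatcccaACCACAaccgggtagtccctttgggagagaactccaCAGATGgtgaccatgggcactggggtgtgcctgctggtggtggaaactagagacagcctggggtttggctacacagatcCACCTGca
Vpreb1: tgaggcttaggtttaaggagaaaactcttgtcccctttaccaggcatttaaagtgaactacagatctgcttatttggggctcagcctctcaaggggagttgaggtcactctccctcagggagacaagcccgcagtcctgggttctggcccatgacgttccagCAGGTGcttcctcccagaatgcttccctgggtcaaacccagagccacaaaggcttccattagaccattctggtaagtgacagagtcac
Rag1: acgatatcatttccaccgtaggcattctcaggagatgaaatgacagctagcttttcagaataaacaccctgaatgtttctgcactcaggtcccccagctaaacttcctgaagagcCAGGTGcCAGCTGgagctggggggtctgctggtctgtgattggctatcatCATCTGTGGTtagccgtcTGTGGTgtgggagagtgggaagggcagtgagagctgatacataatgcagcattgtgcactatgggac
Dntt: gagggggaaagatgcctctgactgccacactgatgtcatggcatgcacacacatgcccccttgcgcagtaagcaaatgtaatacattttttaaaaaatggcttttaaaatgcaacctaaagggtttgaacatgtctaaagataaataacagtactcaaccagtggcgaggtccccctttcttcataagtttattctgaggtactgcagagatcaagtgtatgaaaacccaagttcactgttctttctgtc
Promoter sequence was matched for 9 of the 10 members, all but Cd79b. The E2A-type E-box was found in 7 of the 9 windows and in 44.8% of the 32851 windows of the same length in the RefSeq table. The windows of Vpreb1 and its copy Vpreb2 hold the same stretch around a CAGGTG match, so they are not independent. The wider E-box CANNTG, which contains the E2A type, was found in 9 of 9 windows and in 66.2% of all. The RUNX motif was in 3 windows (Igll1, Rag1 and Vpreb3) against 14% of all, and the EBF1 motif was in the Igll1 window alone, at bases -231 to -224 from the start, against 11.8% of all. In the Rag1 window, an E-box at bases -85 to -80 overlaps a RUNX match at bases -81 to -76. Of the HIF core motifs, ACGTG was in 0 of 9 windows (16.6% of all) and GCGTG in the Cd79a window only (28.2% of all). The TATA box TATAAA was in 0 of 9 windows (12.4% of all). A match is only a run of letters, and its absence says nothing of factors acting elsewhere.

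Values were TPM, a relative transcript abundance per length, scaled to a near-constant sum per library, which keeps no read counts, and sequencing depth is therefore unknown. The 4 columns summed to between 955562 and 963135 TPM. A gene listed at 0 may have failed to be estimated: Rps12, a ribosomal protein gene, stood at 77.0 and 74.6 TPM in the Hif1a-null libraries, against 6.3e-07 and 132 TPM in the Hif1a-intact libraries. For this reason each library is shown separately wherever a member has a 0. Hif1a itself stood at 98.8 and 113 TPM in the libraries labelled Hif1a-null, against 100.3 and 75.2 TPM in the Hif1a-intact libraries. Because the gene-level sum also covers exons that are not deleted, it cannot test the genotype, which is taken as labelled. Runx1, floxed in both groups, stood at 48.4 and 46.7 TPM in the Hif1a-null libraries, against 73.6 and 76.6 TPM in Hif1a-intact, and differences in Runx1 and in Hif1a status cannot be told apart here.

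The comparison asks how these transcripts differ when Hif1a is floxed in addition to Runx1 on the MllPTD background. Of the 10 members, 8 rose in the Hif1a-null libraries (limma, Benjamini-Hochberg adjusted p under 0.05), 0 fell, Cd79b was not called, and Vpreb2 did not reach the 1 TPM in 2 libraries required for the test. Over all 11909 genes tested, 5.25% were called higher and 2.02% lower. All 8 had both Hif1a-null libraries above both Hif1a-intact libraries, as had 22.7% of all tested genes. The median difference of the 9 tested members was 2.02 on the log2(TPM + 1) scale, against -0.06 for all tested genes. Differences on this scale understate the change of genes with low TPM. In 6 of the 9 (Rag1, Rag2, Vpreb1, Vpreb3, Igll1 and Cd79a) neither Hif1a-intact library reached 1 TPM, so these genes were tested only because the Hif1a-null libraries were higher, and they could only rise. Of the 536 genes tested in that way, 61.8% were called higher. Without any filter, all 10 members were tested and 7 were called higher, against 2.14% of 20081 genes. The 7 did not include Vpreb1 (limma, adjusted p = 0.0511). In bulk RNA, more cells of a type and more RNA per cell cannot be told apart.

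**Figure D1:**
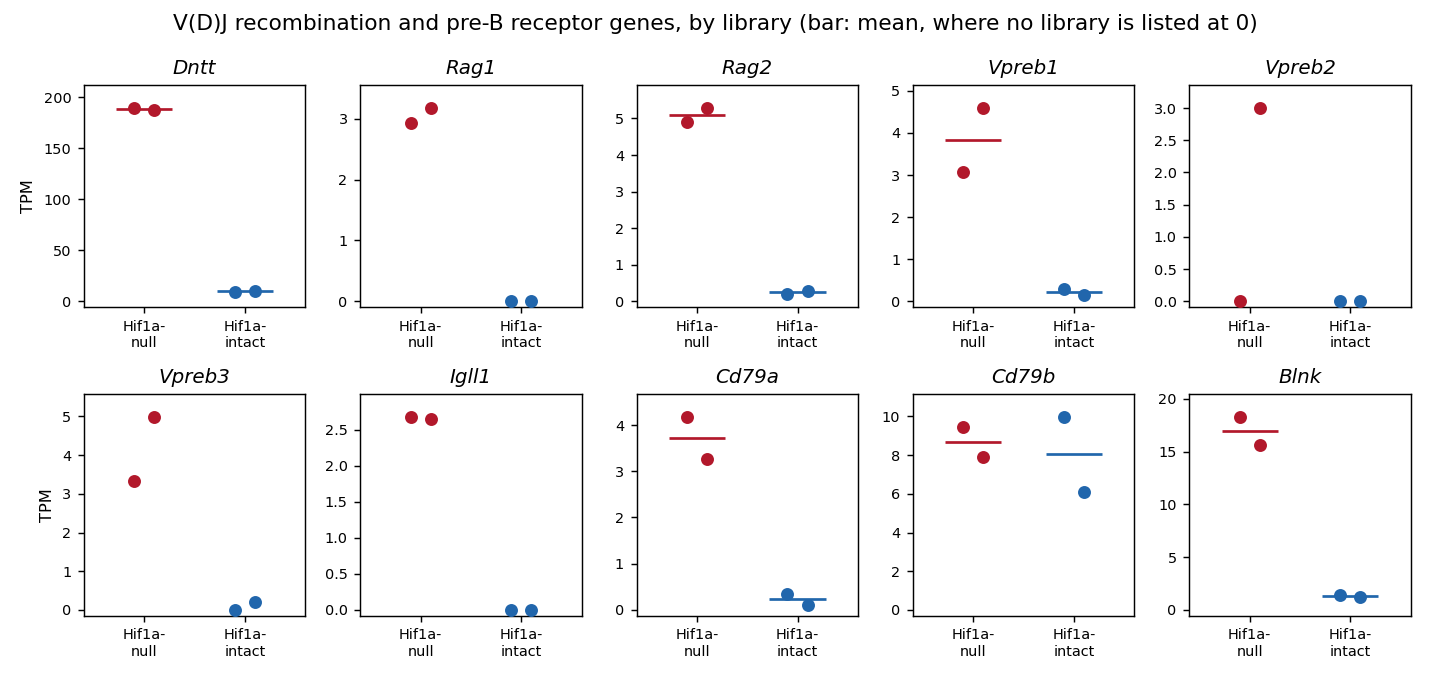
TPM of each of the 10 members (1 panel each, linear axis from 0) in the 2 Hif1a-null libraries (red, left) and the 2 Hif1a-intact libraries (blue, right), with a bar at the group mean where no library was listed at 0. Both red points lie above both blue points in 8 panels, and the groups overlap for Cd79b and Vpreb2.

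Dntt, the terminal transferase gene, had the highest mean level of the members and the highest level in every library except Hif1a-intact replicate 1, where Cd79b was higher (ENSMUSG00000025014, chromosome 19, 41029275 to 41059525, plus strand). It stood at 189 and 188 TPM in the Hif1a-null libraries, against 9.41 and 10.2 TPM in the Hif1a-intact libraries. The libraries of each group lay close together and the groups were far apart. The means were 188 ± 1.22 TPM in Hif1a-null and 9.82 ± 0.578 TPM in Hif1a-intact (SD, n = 2 each), a ratio of 19.2 and a difference of 4.13 on the log2(TPM + 1) scale (standard error 0.13, limma, adjusted p = 0.00349). By level, Dntt was the 575th and 592nd gene in the Hif1a-null libraries and the 7385th and 6840th gene in the Hif1a-intact libraries. Between 16467 and 17802 genes were above 0 in a library. Dntt was above 1 TPM in every library, so its direction was not set by the filter. It stayed called without Hif1a-null replicate 1 (limma, adjusted p = 0.0467) but not without Hif1a-null replicate 2 (adjusted p = 0.0787), with differences of 4.12 and 4.14.

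The recombinase genes Rag1 and Rag2 both rose, and their Hif1a-intact levels were at or near 0. Rag2 (ENSMUSG00000032864, chromosome 2, 101624718 to 101632529, plus strand) stood at 4.90 and 5.28 TPM in the Hif1a-null libraries, against 0.198 and 0.287 TPM in the Hif1a-intact libraries. The means were 5.09 ± 0.270 TPM in Hif1a-null and 0.242 ± 0.0627 TPM in Hif1a-intact (SD, n = 2 each), with a difference of 2.29 ± 0.13 (standard error) on the log2(TPM + 1) scale (limma, adjusted p = 0.00644). Rag1 (ENSMUSG00000061311, 101638282 to 101649501, minus strand), which encodes the catalytic subunit, stood at 2.93 and 3.18 TPM in the Hif1a-null libraries and was at 0 in each Hif1a-intact library (limma, adjusted p = 0.0070). Rag2 stood at 1.68 and 1.66 times Rag1 in the Hif1a-null libraries, per length. The ratio of Dntt to Rag2 was 38.6 and 35.5 in the Hif1a-null libraries and 47.6 and 35.7 in the Hif1a-intact libraries, so the groups overlapped in this ratio.

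The Rag locus holds a further gene that changed. B230118H07Rik, a protein-coding gene whose span overlaps both Rag1 and Rag2, stood at 15.4 and 18.3 TPM in the Hif1a-null libraries, against 1.84 and 0.458 TPM in the Hif1a-intact libraries (limma, adjusted p = 0.0217). It was named after its values were seen. Its transcripts share 5.26% of the 31-base words of Rag2 and 0.791% of those of Rag1, and the sources name no strand setting for the counting. Reads from the shared stretches could be credited to either gene. Summed as 1 unit, the 3 genes differed by 3.49 on the log2(TPM + 1) scale (limma, adjusted p = 0.0124).

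The 3 tested genes of the surrogate light chain group (Igll1, Vpreb1 and Vpreb3) rose. Igll1, which encodes lambda 5, stood at 2.68 and 2.65 TPM in the Hif1a-null libraries and was at 0 in each Hif1a-intact library (limma, adjusted p = 0.00763). Vpreb1 stood at 3.07 and 4.59 TPM in the Hif1a-null libraries, against 0.291 and 0.159 TPM in the Hif1a-intact libraries. Its difference was 1.96 ± 0.21 (standard error) on the log2(TPM + 1) scale (limma, adjusted p = 0.0174). The call of Vpreb1 was also lost without Hif1a-intact replicate 2 (limma, adjusted p = 0.0615).

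Vpreb2, the copy of Vpreb1 shown above, stood at 0 and 2.999 TPM in the Hif1a-null libraries and was at 0 in each Hif1a-intact library. The sum of Vpreb1 and Vpreb2, which does not depend on how reads were divided between them, differed by 2.27 ± 0.39 (standard error) and did not pass (limma, adjusted p = 0.0514). Vpreb3 (ENSMUSG00000000903, chromosome 10, 75943057 to 75949657, plus strand), which encodes a VpreB-like protein retained inside B cell precursors, stood at 3.34 and 4.99 TPM in the Hif1a-null libraries, against 0 and 0.197 TPM in the Hif1a-intact libraries (limma, adjusted p = 0.0153). Vpreb1, Vpreb2 and Vpreb3 were each lower in Hif1a-null replicate 1 than in replicate 2, while Igll1, Rag1 and Dntt differed little between these replicates.

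Among the receptor signalling genes, the CD79 chains parted. Cd79a (ENSMUSG00000003379, chromosome 7, 24897381 to 24902197, plus strand) stood at 4.18 and 3.26 TPM in the Hif1a-null libraries, against 0.356 and 0.111 TPM in the Hif1a-intact libraries. The difference was 1.94 ± 0.18 (standard error) on the log2(TPM + 1) scale (limma, adjusted p = 0.0147). Cd79a shared 12.2% of its 31-base words with Gm32220, which was not analysed here. Cd79b (ENSMUSG00000040592, chromosome 11, 106311341 to 106314762, minus strand) stood at 9.44 and 7.91 TPM in the Hif1a-null libraries, against 9.97 and 6.12 TPM in the Hif1a-intact libraries, so its groups overlapped. Its difference of 0.13 had a 95% interval of -0.58 to 0.83 (limma, adjusted p = 0.823).

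CD79A and CD79B proteins act as a dimer, but their transcripts were far from a fixed ratio. Cd79b stood at 2.26 and 2.42 times Cd79a per length in the Hif1a-null libraries, against 28.04 and 55.1 times in the Hif1a-intact libraries. The groups did not overlap in this ratio, but with 2 libraries against 2 a two-sided exact permutation test cannot go below the p = 0.333 it gave. The Hif1a-intact ratios rest on Cd79a values well under 1 TPM.

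Blnk, the adaptor gene (ENSMUSG00000061132, chromosome 19, 40928927 to 40994535, minus strand, 34739 bases from Dntt), stood at 18.3 and 15.6 TPM in the Hif1a-null libraries, against 1.40 and 1.25 TPM in the Hif1a-intact libraries. The means were 17.0 ± 1.90 TPM in Hif1a-null and 1.33 ± 0.109 TPM in Hif1a-intact (SD, n = 2 each), a ratio of 12.8. Its difference was 2.94 ± 0.15 (standard error) on the log2(TPM + 1) scale (limma, adjusted p = 0.00511). Like Dntt, Blnk was above 1 TPM in every library. It was not called without Hif1a-null replicate 1 (difference 2.84, limma, adjusted p = 0.0711) or replicate 2 (difference 3.05, adjusted p = 0.0796).

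**Figure D2:**
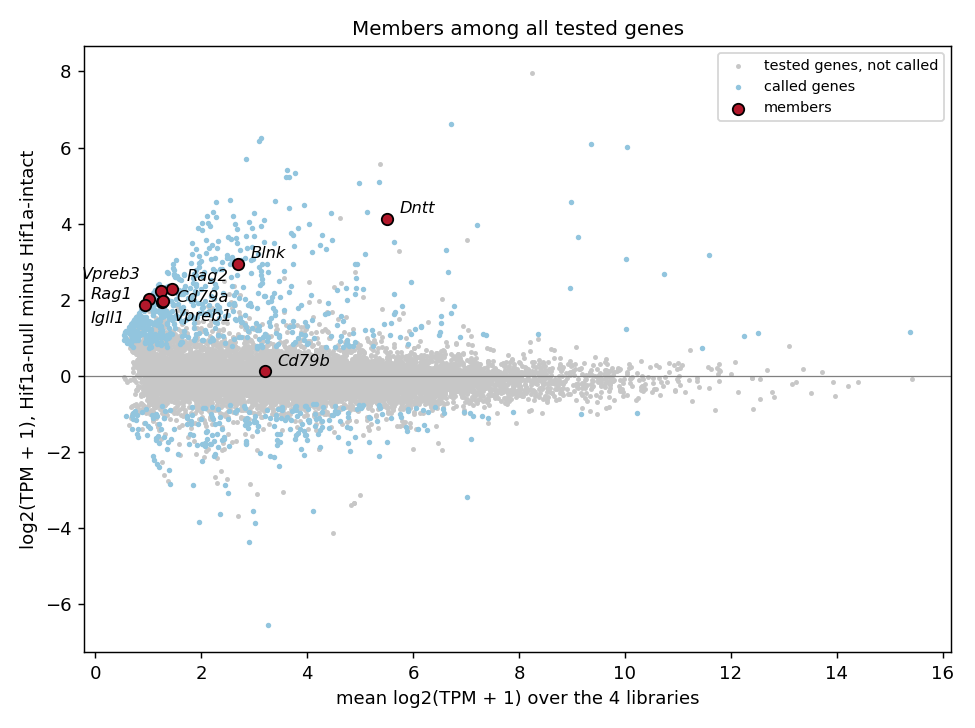
Difference between Hif1a-null and Hif1a-intact libraries on the log2(TPM + 1) scale (vertical axis) against the mean level over the 4 libraries (horizontal axis) for all 11909 tested genes, with called genes in light blue and the 9 tested members in red. Dntt and Blnk stand at higher levels than the 6 members that cluster at about 2 on the vertical axis, and Cd79b lies near 0.

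The calls depended on the Hif1a-null pair. Without Hif1a-null replicate 1, 3 members could still be tested and 1 was called (Dntt). Without Hif1a-null replicate 2, 3 were tested and 0 were called by limma, with 2 at an unadjusted p under 0.05. Over all genes the called numbers were then 11 higher and 8 lower without replicate 1, and 0 and 0 without replicate 2, with 958 of 11272 genes at an unadjusted p under 0.05. In each case the spread was estimated from the Hif1a-intact pair alone, and the lone Hif1a-null library was assumed to vary like that pair. With the filter also dropped, a choice made after seeing the data, 0 of 10 and 0 of 9 members passed limma, with 9 and 8 at an unadjusted p under 0.05. Without Hif1a-intact replicate 1, 8 of 9 were called, and without Hif1a-intact replicate 2, 7 of 9.

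Summed over the 10 members, the Hif1a-null libraries held 238 and 238 TPM, against 21.6 and 18.4 TPM in the Hif1a-intact libraries. Dntt made up 79.5% and 78.8% of that sum in the Hif1a-null libraries, against 43.5% and 55.8% in the Hif1a-intact libraries. Cd79b made up 3.97% and 3.32% in the Hif1a-null libraries, against 46.1% and 33.3% in the Hif1a-intact libraries. Without Dntt and Cd79b, the other 8 summed to 39.4 and 42.6 TPM in the Hif1a-null libraries, against 2.25 and 2.003 TPM in the Hif1a-intact libraries. The share of Blnk was alike throughout, at 7.68% and 6.56% in the Hif1a-null libraries and 6.49% and 6.81% in the Hif1a-intact libraries.

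**Figure D3:**
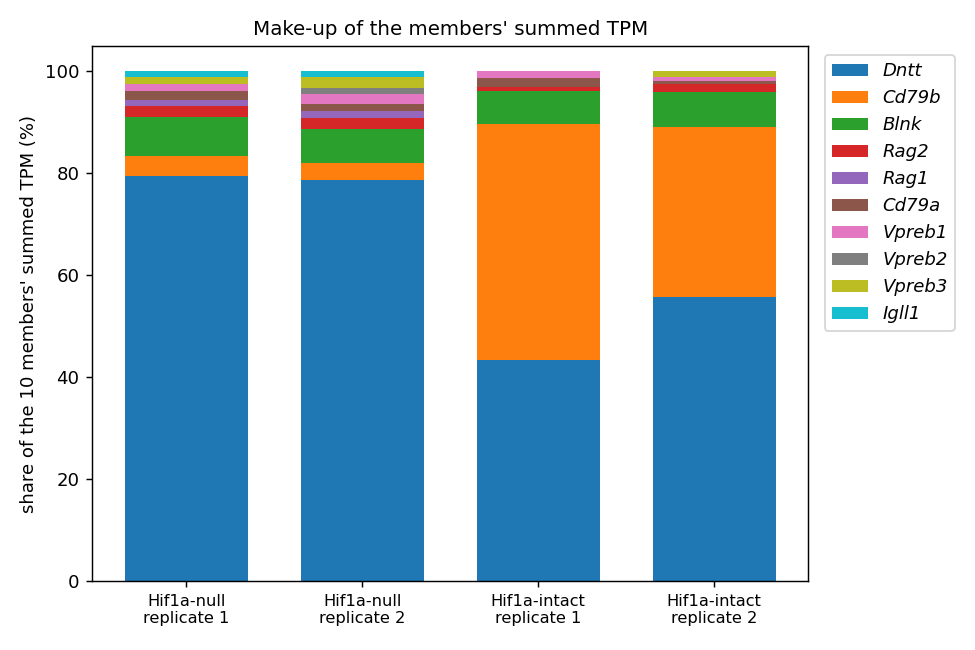
Share of the members' summed TPM (%) taken by each of the 10 genes in each library, with the Hif1a-null libraries on the left. Dntt takes 79.5% and 78.8% of the Hif1a-null bars, while Cd79b takes 46.1% and 33.3% of the Hif1a-intact bars.

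Genes that act with the members were read by list, beside 5.25% called higher over all tested genes and 61.8% among those that passed the filter only through the Hif1a-null libraries. Of 13 end-joining genes and RAG cofactors, all tested, 1 rose and 0 fell, with a median difference of 0.03 on the log2(TPM + 1) scale. The gene that rose was Xrcc5, which encodes the Ku80 subunit of the DNA end-binding Ku dimer. It stood at 7.47 and 7.25 TPM in the Hif1a-null libraries, against 0.962 and 1.34 TPM in the Hif1a-intact libraries (difference 1.96 ± 0.15, standard error, limma, adjusted p = 0.00935), and was not called without either Hif1a-null library (limma, adjusted p = 0.131 and 0.147). Its partner Xrcc6, which encodes Ku70, stood at 57.4 and 38.1 TPM in the Hif1a-null libraries, against 51.1 and 48.8 TPM in the Hif1a-intact libraries. Nhej1, which encodes the ligation factor XLF, and Lig4, the DNA ligase of this pathway, differed by 0.28 and -0.31 (limma, adjusted p = 0.33 and 0.434). Hmgb1, which encodes a chromatin protein that aids RAG cutting, differed by 0.33 (limma, adjusted p = 0.531).

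Of the 16 kinases, adaptors and coreceptors of the pre-B receptor reported here, 12 were tested and 0 passed limma in either direction. Their median was -0.25, and 5 had an unadjusted limma p under 0.05, as had 2767 of all 11909 tested genes. The shared signalling genes Plcg2 (phospholipase C gamma 2), Grb2 (an adaptor) and Ptpn6 (the phosphatase SHP-1) differed by -0.48, -0.57 and -0.56 and did not pass (limma, adjusted p = 0.124, 0.137 and 0.172). Fyn, a kinase gene of the Src family, stood at 14.9 and 16.2 TPM in the Hif1a-null libraries, against 9.48 and 3.72 TPM in the Hif1a-intact libraries. Its difference of 1.23 did not pass (limma, adjusted p = 0.188), but it did without Hif1a-intact replicate 1 (difference 1.81, adjusted p = 0.0272). The kinase gene Syk, which acts directly below the receptor, stood at 38.7 and 39.1 TPM in the Hif1a-null libraries, against 42.1 and 44.8 TPM in the Hif1a-intact libraries. Blk, a kinase gene used mainly by B cells, stood at 0.0255 and 0.0105 TPM in the Hif1a-null libraries and was at 0 in each Hif1a-intact library. Syk, Blk, Xrcc6, Spib and Pax5 were named in addition to the genes of smallest p in each list.

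Of 14 early B transcription factor genes, 12 were tested, 5 rose and 0 fell, with a median of 0.65, and none of the 5 reached 1 TPM in a Hif1a-intact library, so they could only rise. Ebf1, an early B-lineage determinant, stood at 1.44 and 1.29 TPM in the Hif1a-null libraries, against 0.186 and 0.0573 TPM in the Hif1a-intact libraries (limma, adjusted p = 0.0267). Pou2af1, which encodes an octamer coactivator, stood at 2.60 and 4.01 TPM in the Hif1a-null libraries, against 0.428 and 0.153 TPM in the Hif1a-intact libraries (limma, adjusted p = 0.029). Irf4, Lef1 and Spib rose by 1.48, 1.10 and 0.94 on the log2(TPM + 1) scale (limma, adjusted p = 0.0127, 0.020 and 0.0434). Lef1 shares 33.4% of its 31-base words with Gm43352. Ebf1, Lef1 and Pou2af1 were not called under quantile normalization (limma, adjusted p = 0.0733, 0.068 and 0.0559). Pou2af1 was also not called without a filter (limma, adjusted p = 0.0752) or without Hif1a-intact replicate 1 or 2 (0.0551 and 0.0765), nor Ebf1 without Hif1a-intact replicate 2 (0.0515). Spib was not followed through the alternatives. Pax5, the B-lineage commitment factor, was not tested, at 0.532 and 1.23 TPM in the Hif1a-null libraries, against 0 and 0.0125 TPM in the Hif1a-intact libraries. Of 6 genes of the IL-7 receptor path, 0 passed in either direction by limma, with 1 at an unadjusted p under 0.05 (2767 of 11909 over all tested genes). That gene was Il7r, the receptor chain gene, at 2.30 and 1.84 TPM in the Hif1a-null libraries, against 0.476 and 1.10 TPM in the Hif1a-intact libraries (difference 0.80, limma, adjusted p = 0.143). Stat5a, Il2rg and Stat5b differed by -0.50, -0.46 and -0.55 (limma, adjusted p = 0.222, 0.241 and 0.27).

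**Figure D4:**
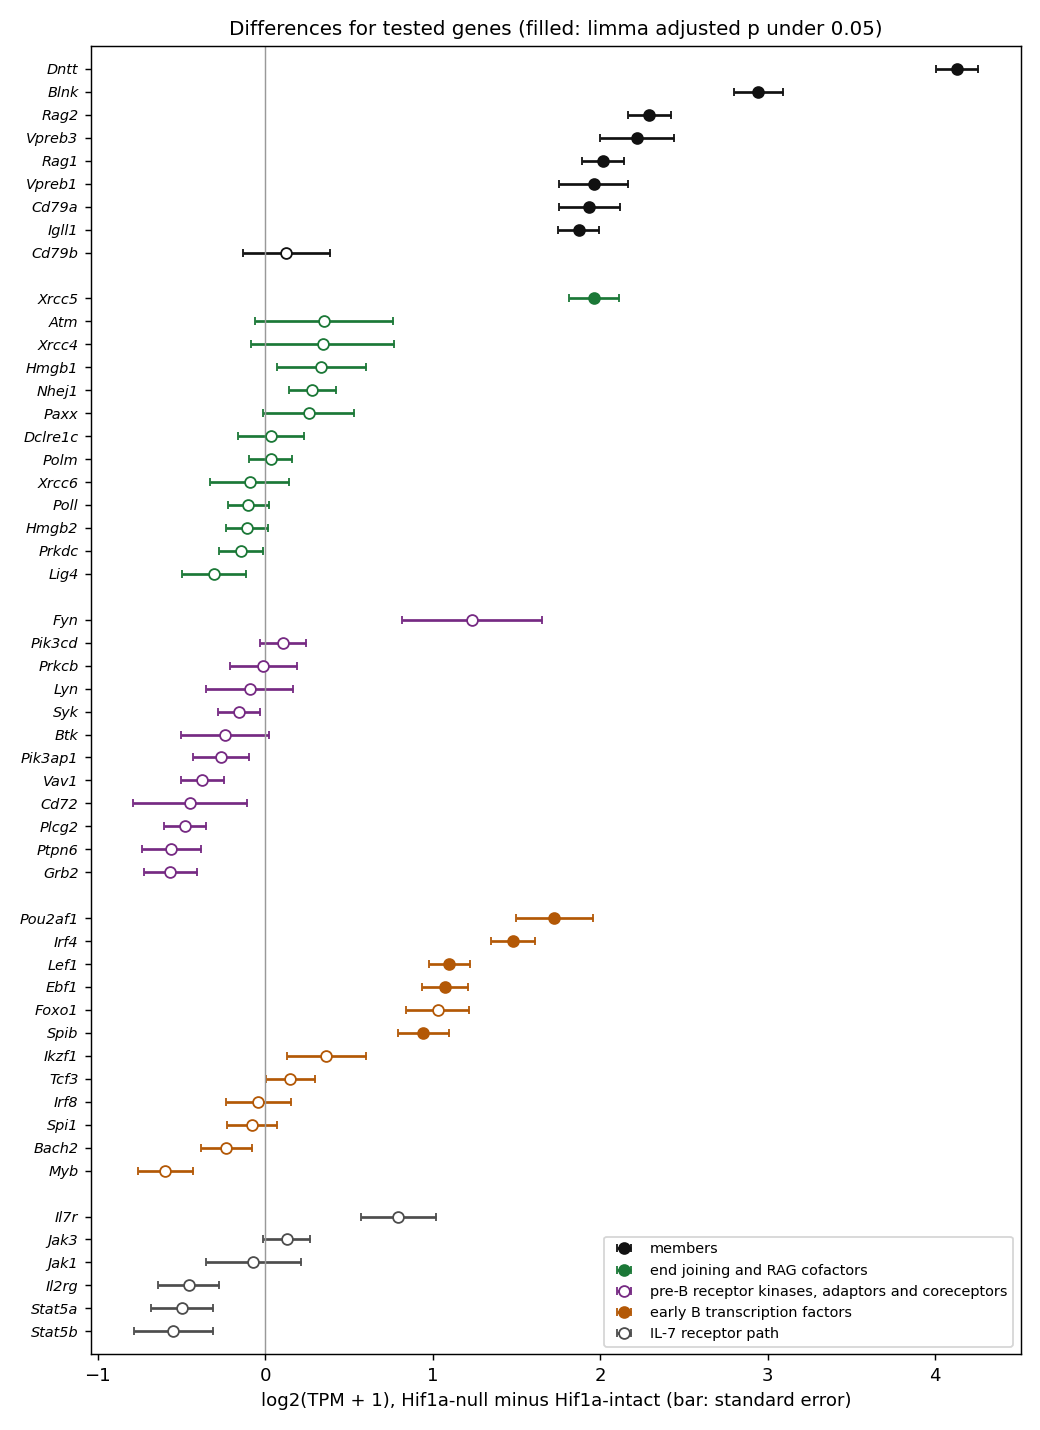
Differences between Hif1a-null and Hif1a-intact libraries on the log2(TPM + 1) scale with their standard errors, for the tested members and 4 lists of genes that act with them. Filled symbols passed limma at an adjusted p under 0.05, which were 8 of 9 members, 1 of 13 end-joining genes, 0 of 12 receptor partners, 5 of 12 transcription factors and 0 of 6 IL-7 path genes.

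Markers of the cell types in the sample were read beside these results, and their part in them was not tested. Over all tested genes, 5.25% were called higher and 2.02% lower. Among genes that passed the filter only through the Hif1a-null libraries, which could only rise, 61.8% were called higher. The 6 progenitor markers summed to 533 and 544 TPM in the Hif1a-null libraries, against 669 and 722 TPM in the Hif1a-intact libraries. By limma, 0 of 6 were called and 1 (Myb) had an unadjusted p under 0.05, as had 2767 of all 11909 tested genes. Kit stood at 121 and 102 TPM in the Hif1a-null libraries, against 128 and 126 TPM in the Hif1a-intact libraries, so the labelled c-Kit-positive cells had their defining marker in both groups. The 7 early lymphoid progenitor markers summed to 481 and 471 TPM in the Hif1a-null libraries, against 486 and 477 TPM in the Hif1a-intact libraries. Of these Ly6d alone rose (9.32 and 11.4 TPM in Hif1a-null, 1.52 and 1.53 TPM in Hif1a-intact, limma, adjusted p = 0.00842), and Flt3 stood at 32.1 and 31.1 TPM in Hif1a-null and 31.8 and 18.7 TPM in Hif1a-intact.

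Of the 7 pro-B and pre-B markers reported here, 5 were tested and 2 rose (Ly6d and Ebf1, of which Ebf1 could only rise). Their sums were 571 and 595 TPM in the Hif1a-null libraries, against 473 and 400 TPM in the Hif1a-intact libraries, most of it Cd24a, which is not particular to B cells. Pax5 was listed at 0 in Hif1a-intact replicate 1. Of 7 mature B markers, 3 were tested and 2 rose (Cd74 and Fcrl1, of which Fcrl1 could only rise). The 7 summed to 97.9 and 92.4 TPM in Hif1a-null and 46.7 and 41.4 TPM in Hif1a-intact. Most of this sum was Cd74, at 91.9 and 87.8 TPM in Hif1a-null and 43.7 and 38.8 TPM in Hif1a-intact. Ms4a1, which encodes the mature B antigen CD20, stood at 1.19 and 0.642 TPM in the Hif1a-null libraries, against 0.385 and 0.0301 TPM in the Hif1a-intact libraries. Fcer2a, which encodes CD23 of mature B cells, lay the other way, at 0.425 and 0.227 TPM in the Hif1a-null libraries, against 0.837 and 0.594 TPM in the Hif1a-intact libraries. Neither gene was tested. Of 5 plasma cell markers, 4 were tested and 2 rose (Jchain and Irf4, of which Irf4 could only rise). The 5 summed to 417 and 445 TPM in Hif1a-null and 163 and 148 TPM in Hif1a-intact. Xbp1 lay the other way, at 101 and 90.6 TPM in Hif1a-null and 122 and 106 TPM in Hif1a-intact. Neither Xbp1 nor Sdc1 was called (limma, adjusted p = 0.428 and 0.0878), and Prdm1 was not tested. Jchain, which encodes the joining chain of secreted antibodies, stood at 289 and 327 TPM in the Hif1a-null libraries, against 26.7 and 34.4 TPM in the Hif1a-intact libraries (limma, adjusted p = 0.00611).

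Markers of other lymphoid and dendritic cells were read in the same way. Of 10 early T markers, 4 were tested and 3 rose (Tcf7, Lck and Cd3g, of which Tcf7 and Cd3g could only rise), with sums of 40.1 and 47.7 TPM in Hif1a-null and 6.74 and 9.68 TPM in Hif1a-intact. The groups overlapped for Cd3e, Cd8a and Gata3, which were not tested. Ptcra, which encodes the pre-T receptor alpha chain and marks early thymocytes, was listed at 0 in all 4 libraries. Of 6 plasmacytoid dendritic cell markers, 5 were tested and 2 rose (Siglech and Ly6d), while the groups overlapped for Bst2, with sums of 94.4 and 94.1 TPM in Hif1a-null and 53.1 and 34.8 TPM in Hif1a-intact. Of 4 NK cell markers, 3 were tested and 3 rose (Ncr1, Gzma and Klrb1c, of which Ncr1 and Gzma could only rise), with sums of 34.1 and 35.5 TPM in Hif1a-null and 1.63 and 0.506 TPM in Hif1a-intact. Gzma and Prf1 were at 0 in each Hif1a-intact library.

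Markers of myeloid and erythroid cells complete the set. The 5 erythroid markers were all tested and all higher, of which Klf1 and Epor could only rise. The 5 summed to 5376 and 5789 TPM in the Hif1a-null libraries, against 98.5 and 66.8 TPM in the Hif1a-intact libraries. The 6 neutrophil markers, of which 2 rose, summed to 26478 and 25864 TPM in the Hif1a-null libraries, against 24168 and 20842 TPM in the Hif1a-intact libraries. Of the 4 not called, Mpo, which encodes myeloperoxidase, stood at 1926 and 1950 TPM in the Hif1a-null libraries, against 2859 and 2326 TPM in the Hif1a-intact libraries. The groups overlapped for Camp and Elane. Immunoglobulin and T cell receptor genes were summed by class and not tested. Heavy chain constant genes summed to 312 and 252 TPM over 6 genes in Hif1a-null, against 54.9 and 28.1 TPM in Hif1a-intact. Ighm among them stood at 133 and 72.9 TPM in Hif1a-null, against 48.7 and 18.9 TPM in Hif1a-intact. Heavy J segments summed to 11551 and 12582 TPM over 4 genes in Hif1a-null, against 650 and 365 TPM in Hif1a-intact. Kappa light chain genes summed to 21487 and 25434 TPM over 11 genes in Hif1a-null, against 2874 and 2032 TPM in Hif1a-intact. T cell receptor genes summed to 592 and 622 TPM over 100 genes in Hif1a-null, against 3.09 and 38.3 TPM in Hif1a-intact. Only 2 heavy V genes were among the genes with deposited values, so their sum does not describe heavy V segments as a class. The groups overlapped for these 2, at 2.57 and 3.47 TPM in Hif1a-null and 2.83 and 0 TPM in Hif1a-intact.

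**Figure D5:**
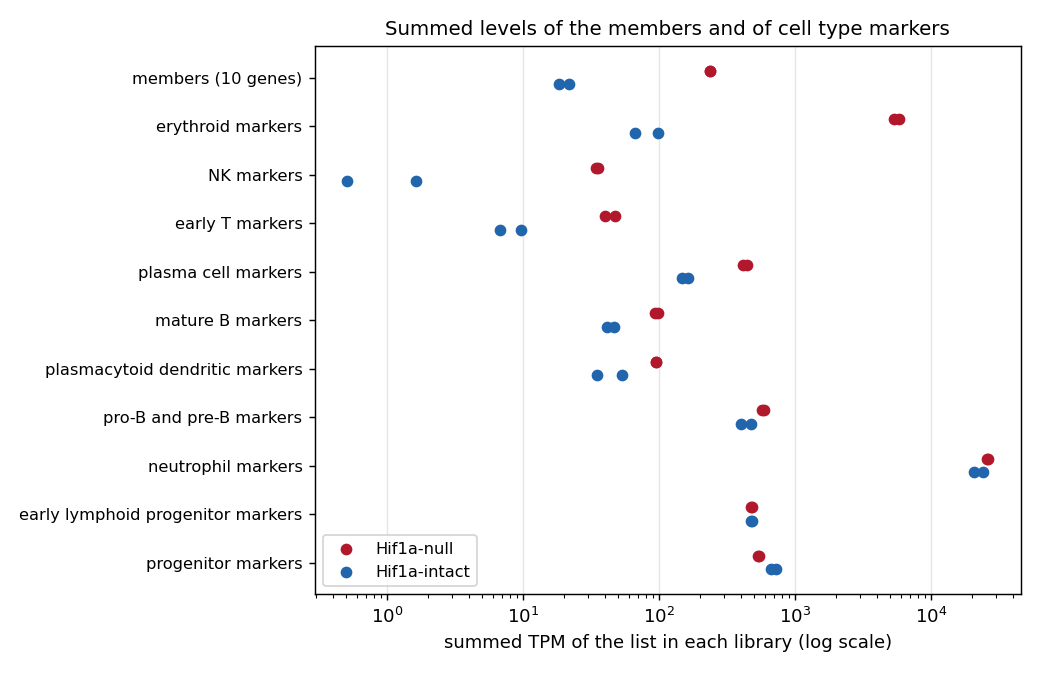
Summed TPM of the 10 members and of each cell type marker list in every library (log axis), with Hif1a-null libraries in red above Hif1a-intact libraries in blue. Erythroid, NK and early T markers differ most beside the members, while the early lymphoid progenitor sums lie together at 481 and 471 TPM in Hif1a-null and 486 and 477 TPM in Hif1a-intact.

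The pattern of a member over the 4 libraries was compared with other tested genes, by the distance between centred log2(TPM + 1) values. Only 8544 genes could be named. These had a symbol and a mean of at least 5 TPM in the higher group, with predicted genes and receptor segments left out. For Dntt the nearest 4 were Alas2, Tspan8, Tspo2 and Hemgn, at distances of 0.0933 to 0.175. Alas2 encodes the erythroid enzyme of haem synthesis and Hemgn a nuclear protein of blood cells. Alas2 stood at 20.5 and 18.9 TPM in the Hif1a-null libraries, against 0.117 and 0.165 TPM in Hif1a-intact, and 15.4% of its 31-base words occur in other genes. For Blnk the nearest 4 were Il1f9, Rps15a-ps5, Sept8 and Itgb2l, at 0.0585 to 0.144, of which Il1f9 encodes an interleukin-36 cytokine. Il1f9 stood at 38.2 and 34.1 TPM in the Hif1a-null libraries, against 4.09 and 3.58 TPM in the Hif1a-intact libraries. Rps15a-ps5 was at 0 in each Hif1a-intact library. With 4 libraries, this distance measures little beyond the size of the difference between the groups on the log2(TPM + 1) scale. Genes near by this distance need not be alike in their ratio of TPM between the groups.

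Neighbouring genes were also read. Of 36 annotated genes other than members within 50000 bases of a member, 27 were in the table and 14 were tested, of which 3 rose and 1 fell, beside 5.25% and 2.02% over all tested genes. Chchd10 and Gm867 passed the filter only through the Hif1a-null libraries and could only rise. Besides B230118H07Rik, Chchd10, which encodes a mitochondrial protein near Vpreb3, stood at 3.49 and 3.97 TPM in the Hif1a-null libraries, against 0.967 and 0.34 TPM in the Hif1a-intact libraries (limma, adjusted p = 0.0378). Gm867, also near Vpreb3, stood at 1.81 and 1.70 TPM in the Hif1a-null libraries and was at 0 in each Hif1a-intact library (limma, adjusted p = 0.0116). Ppm1f, a phosphatase gene, fell to 16.3 and 16.3 TPM in the Hif1a-null libraries, against 33.7 and 30.9 TPM in the Hif1a-intact libraries (limma, adjusted p = 0.030). Top3b, whose span overlaps Vpreb1 on the other strand, stood at 57.4 and 58.3 TPM in the Hif1a-null libraries, against 73.1 and 66.4 TPM in Hif1a-intact, and shared no 31-base word with Vpreb1. These neighbours were named after their values were seen.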

How the data were processed

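RNA from c-Kit-selected bone marrow cells was sequenced, per the labels' protocols. The submitters' processing notes name kallisto and the mm10 build, and its version, transcript set and strand setting were not stated. The authors deposited 1 TPM value per Ensembl gene and library, a unit inferred from the column sums. TPM is relative: a rise in abundant transcripts lowers the others.

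Of 28987 genes, 27458 received a symbol from GENCODE vM21 (GRCm38). Groups came from genotype labels, with no batch named. On log2(TPM + 1), limma 3.58.1 (R 4.3.3, two-sided, trend and robust off) was fitted to every gene that reached 1 TPM in 2 or more libraries, and p-values were adjusted by Benjamini-Hochberg over all such genes. The fit was also run on simulated data, with changes added only to genes of higher mean level. That run says nothing about members near 0 TPM. Differences are Hif1a-null minus Hif1a-intact.

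The members, lists and naming rule were chosen with earlier results of these data known. The result of 1 further gene is not reported here, and the counts, medians and sums of the receptor-partner and the pro-B and pre-B lists leave it out. Named were all members, up to 4 genes of smallest p per list, and the 4 genes most alike to Dntt and Blnk (at least 5 TPM, predicted genes and receptor segments left out). Shared sequence was searched among annotated transcripts with blastn 2.17.0 and exact 31-base words. Alternatives were other pseudocounts (0.1 and 0.5), filters, a variance trend, 3 rescalings, each library left out, and summed copies. The sum over the Rag locus and unfiltered fits without a Hif1a-null library were added after seeing the data.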

Additional observations from a re-analysis of the deposited data

How the results depend on the processing

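The count of 8 members called higher was 7 without a filter, 7 without Hif1a-intact replicate 2, 7 with Vpreb1 and Vpreb2 summed (the sum did not pass), 7 with Rag1, Rag2 and B230118H07Rik summed (the sum passed and counts as 1), and 8 under both other pseudocounts, a filter on the mean, a variance trend, quantile normalization, median-ratio rescaling, the 20 most abundant genes left out and without Hif1a-intact replicate 1. With 1 library left out it ran from 0 to 8, genes called higher from 0 to 731 (625 with all libraries) and genes called lower from 0 to 288 (241 with all libraries). Without a filter, 430 genes were called higher and 138 lower. The low counts came without a Hif1a-null library, where 3 members are tested with the filter kept. Without a filter and without Hif1a-null replicate 1 or replicate 2, 0 genes and 0 members passed limma, though 2718 and 2703 genes had an unadjusted p under 0.05. The cause of these changes was not tested. Of the alternative values for single members, 107 kept their direction and call, 21 kept their direction and lost the call, and 1 changed sign. That was Cd79b, which was never called, at 0.44 without Hif1a-intact replicate 1 and -0.19 without replicate 2. Its other values, not called as before, count as kept. Alternatives in which a member was not tested are left out of these counts. Dntt, Blnk and Cd79b were tested in 16 alternatives, and the other tested members in 13 or 14. Of the values for named list genes, counted in the same way, 171 kept both, 9 lost the call, 1 gained it (Fyn) and 1 changed sign. The last was Hmgb1, at 0.67 without Hif1a-intact replicate 1 and -0.004 without replicate 2. Over the alternatives the difference of Dntt ran from 4.08 to 4.25 and that of Blnk from 2.84 to 3.58. With a pseudocount of 0.1, the differences of the members under 1 TPM in Hif1a-intact ran from 3.60 (Vpreb1) to 4.98 (Rag1). No paired analysis was possible because the labels give the libraries no shared replicate numbers. Depth is unknown, so values under about 1 TPM carry no counting interval, and 26 genes were listed at 0 in a library while reading 50 TPM or more in another.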
